A study of Mus musculus with 5 samples.

Results

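Claudins are the membrane proteins that form the strands of epithelial tight junctions, and 10 mouse claudin genes, Cldn1, Cldn2, Cldn3, Cldn4, Cldn6, Cldn7, Cldn8, Cldn10, Cldn12 and Cldn23, are described here in primary cultures of pancreatic cells. The members were taken by symbol from probe sets annotated with 1 gene, and where a gene had several, the one with the highest average over the 5 arrays was used. All 10 were measured, among 19938 genes in all. RNA from 5 cultures was hybridised to Affymetrix whole-transcript arrays, which give 1 log2 signal per probe set. The normal ductal group held 2 cultures with the genotype P53L/L, that is, both copies of p53 floxed. The titles add Pdx-1Cre, a transgene that expresses Cre recombinase where the pancreatic gene Pdx-1 is active, although the title of normal ductal replicate 2 reads Pdx-1 without Cre and leaves out the word ductal, which its source and cell type labels give. The title of PDAC replicate 3 adds the words mutant cell. Cells of pancreatic ductal adenocarcinoma made up the PDAC group, 3 cultures with the genotype APCL/+p53L/L and the same transgene, so that 1 floxed copy of Apc was the labelled difference in genotype, and the floxed p53 was common to both groups. The growth medium held 10% serum, and the cells had been passaged fewer than 6 times. The labels call the cultures biological replicates and name no animals, so p-values measure only the spread between these 5 arrays, whose number limits the precision.

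In a tight junction, claudins of neighbouring cells bind each other across the intercellular space and set which ions pass between the cells. Some, such as Cldn1, Cldn3 and Cldn4, mainly seal the junction, and others, such as Cldn2 and Cldn10, form pores that let ions through. Most claudins end in a short motif that binds the scaffold proteins of the Tjp family, which tie the strands to actin. Pancreatic duct epithelium depends on such junctions to hold the bicarbonate-rich fluid in the lumen.

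The labelled cell type was checked on 14 measured duct and epithelial markers. In normal ductal replicates 1 and 2 the log2 signal of the adhesion molecule Epcam was 10.19 and 9.78, that of E-cadherin (Cdh1) 12.32 and 11.96, that of the keratin Krt19 11.46 and 11.37, and that of the duct factor Sox9 10.93 and 10.20. In PDAC replicates 1, 2 and 3 Epcam stood at 5.25, 4.84 and 7.60, Cdh1 at 6.41, 8.33 and 10.76, Krt19 at 6.47, 9.50 and 11.74, and Sox9 at 9.41, 10.39 and 10.39. PDAC replicate 1 thus had Epcam, Cdh1 and Krt19 under 6.61, the median of all genes, far below both normal ductal cultures. In normal ductal replicate 2, 14 of 15 fibroblast and stellate markers, 6 of 12 acinar, 6 of 12 islet, 6 of 13 endothelial and 2 of 14 leukocyte markers lay more than 1 above replicate 1. So did 3 of 10 mesothelial and 0 of 14 duct markers, and 584 of all 19938 genes. The list mean of the fibroblast markers was 7.15 and 9.64 in the normal ductal and 8.94 to 9.40 in the PDAC cultures. That of the acinar markers was 5.06 and 6.79 against 5.11 to 5.20. In cultures measured in bulk, fewer cells of a type and less RNA per cell cannot be told apart.

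The comparison of the groups asked how claudin expression differs between the tumour cultures and the duct cultures without the floxed Apc allele. Of the 10 claudins, 6 had a signal in each PDAC array below that of both normal ductal arrays (Cldn1, Cldn3, Cldn4, Cldn6, Cldn7 and Cldn23), 0 had higher signals in every one, and 4 overlapped. Among all genes 12.8% were lower in every PDAC culture and 13.6% higher. The same 6 had an unadjusted p under 0.05 in limma's moderated test, against 6.86% of all genes lower and 6.5% higher, and 0 passed Benjamini-Hochberg adjustment over all genes, where 0.0552% of genes did. The median log2 difference, PDAC minus normal ductal, was -2.42 over the 10 claudins and 0.01 over all genes. Differences below -2 were found for 5 of the 10 claudins and for 1.46% of all genes, or 2.06% of those with a mean above the gene median. The mean over all arrays lay above that median in 5 claudins and below it in 5. Leaving out the lowest 25% of genes by this mean kept 8 claudins (all but Cldn8 and Cldn10), and leaving out the lowest 50% kept 5 (Cldn3, Cldn4, Cldn6, Cldn7 and Cldn12).

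**Figure D1:**
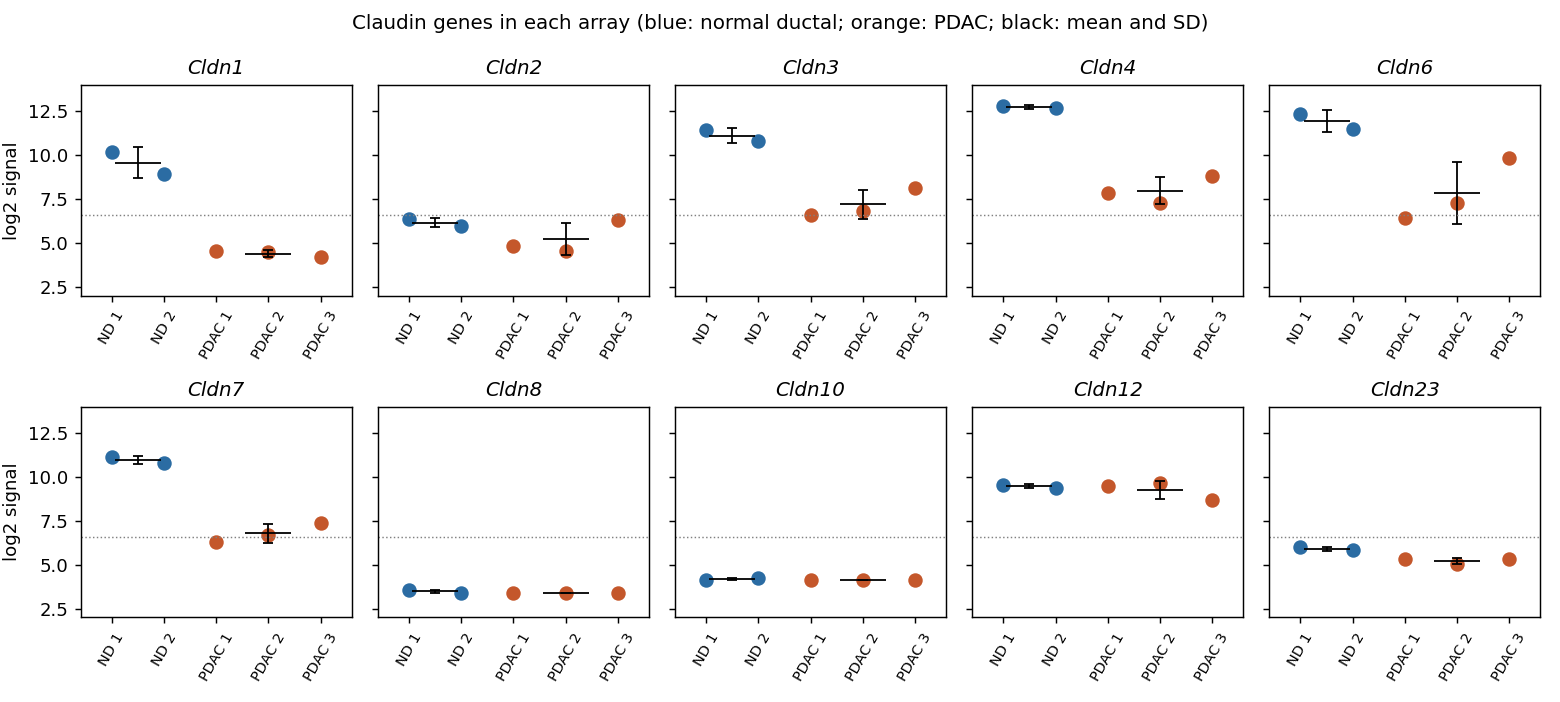
Each panel plots 1 claudin gene, with the log2 signal on the vertical axis and the 2 normal ductal (ND, blue) and 3 PDAC (orange) arrays on the horizontal axis. Black bars give the group mean and SD, and the dotted line marks 6.61, the median of all genes; Cldn1, Cldn3, Cldn4, Cldn6, Cldn7 and Cldn23 were lower in every PDAC array than in both normal ductal arrays.

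The 5 claudins with differences below -2 were Cldn1, Cldn3, Cldn4, Cldn6 and Cldn7. Cldn4, a sealing claudin of ducts and other simple epithelia, had log2 signals of 12.82 and 12.66 in the normal ductal replicates and of 7.87, 7.26 and 8.81 in the PDAC replicates. The normal ductal arrays differed by 0.16, and the gap from the lower of them to the highest PDAC array was 3.85. The group means were 12.74 ± 0.11 (SD, n = 2) and 7.98 ± 0.78 (SD, n = 3), a difference of -4.76 (SE 0.52), which is 27.2-fold lower in PDAC. After adjustment over all genes limma gave an adjusted p of 0.148.

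Cldn3, the close relative of Cldn4 and like it a receptor of the Clostridium perfringens enterotoxin, read 11.42 and 10.80 in the normal ductal arrays and 6.61, 6.84 and 8.16 in the PDAC arrays. The groups were 2.65 apart at their nearest, and PDAC replicate 3 was the highest of the tumour cultures. The difference was -3.91 (SE 0.58), or 15.0-fold lower, with a limma adjusted p of 0.172.

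Cldn7, which binds Epcam and lies along the basolateral membrane as well as in the junction, read 11.14 and 10.81 in the normal ductal arrays and 6.32, 6.70 and 7.36 in the PDAC arrays. Its PDAC arrays spanned 1.05 and stayed 3.45 below the lower normal ductal array. The difference was -4.18 (SE 0.37), or 18.1-fold lower (limma adjusted p = 0.135).

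Cldn1, without which the epidermis loses its water barrier, read 10.21 and 8.94 in the normal ductal arrays and 4.54, 4.47 and 4.20 in the PDAC arrays. The normal ductal arrays differed by 1.27, more than for any other of the 10 claudins, while the PDAC arrays spanned 0.34. The difference was -5.17 (SE 0.43), or 36.1-fold lower (limma adjusted p = 0.121). Its PDAC signals were no higher than that of Cldn17, which held 1 value, 4.58, in all 5 arrays. At so low a signal the size of a fold difference is uncertain.

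Cldn6, a claudin of embryonic epithelia that most adult tissues lack, read 12.37 and 11.51 in the normal ductal arrays and 6.41, 7.29 and 9.84 in the PDAC arrays. The PDAC arrays spanned 3.43, the widest of the 10, and replicate 3 came within 1.66 of the lower normal ductal array. The difference of -4.09 (SE 1.20), or 17.0-fold lower, had a limma adjusted p of 0.315. Without PDAC replicate 1 or 2, or without normal ductal replicate 1 or 2, its unadjusted p no longer lay under 0.05.

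Cldn23, a claudin of the surface epithelium of the gut, had a smaller difference. It read 5.99 and 5.83 in the normal ductal arrays and 5.34, 5.04 and 5.35 in the PDAC arrays, all under the gene median. The gap between the groups was 0.49 and the difference -0.67 (SE 0.13), or 1.59-fold lower (limma adjusted p = 0.210). Its unadjusted p lay above 0.05 without normal ductal replicate 1.

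Cldn8, best known from the distal nephron, was low and nearly flat, with 3.54 and 3.42 in the normal ductal arrays and 3.40, 3.42 and 3.42 in the PDAC arrays. It held only 3 distinct values over the 5 arrays. Its difference was -0.07, with a 95% interval from -0.18 to 0.05 (limma adjusted p = 0.550).

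Among the pore-forming claudins, Cldn2, which passes sodium and water, read 6.35 and 5.96 in the normal ductal arrays and 4.84, 4.57 and 6.29 in the PDAC arrays. PDAC replicate 3 lay between the normal ductal arrays, and the other tumour cultures lay below both. The difference was -0.93, with a 95% interval from -2.66 to 0.81 (limma adjusted p = 0.550). Without PDAC replicate 3 the difference was -1.45 (limma adjusted p = 0.207), and with the replicate number as a block it was also -1.45 (adjusted p = 0.44). PDAC replicate 3 has no normal ductal culture with its number. The block therefore takes it up, and both fits give the same difference by construction. In both of these fits the unadjusted p of Cldn2 lay under 0.05, so that 7 claudins rather than 6 were lower at that threshold.

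Cldn10, whose isoforms form pores for cations or for anions, read 4.16 and 4.22 in the normal ductal arrays and 4.16 in all 3 PDAC arrays. It held 2 distinct values over the 5 arrays, and its difference was -0.03, with a 95% interval from -0.10 to 0.04 (limma adjusted p = 0.607). It was the 1 member with 2 probe sets of its own. The other stood between 4.08 and 4.23 in the 5 arrays, and the array values do not tell the isoforms apart.

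Cldn12, which lacks the usual motif for binding Tjp scaffolds, was the claudin above the gene median whose groups overlapped. It read 9.57 and 9.38 in the normal ductal arrays and 9.50, 9.64 and 8.69 in the PDAC arrays. PDAC replicate 2 was the highest of the 5 arrays and PDAC replicate 3 the lowest. The difference was -0.20, with a 95% interval from -1.17 to 0.77 (limma adjusted p = 0.803), so that differences within that interval could not be told from 0 with these arrays.

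**Figure D2:**
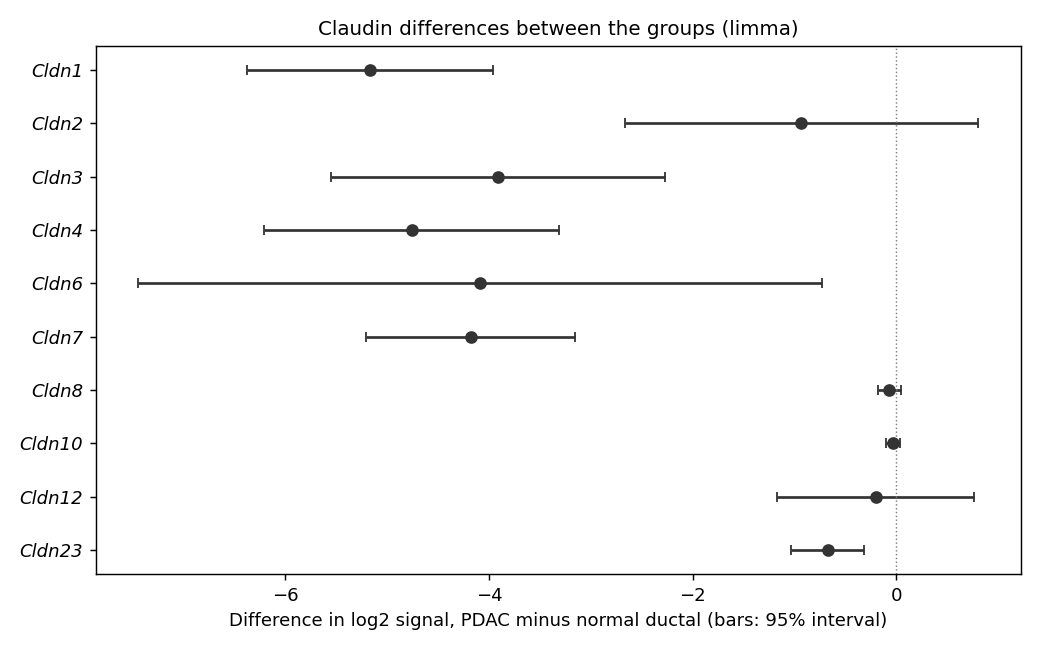
Points give the difference in mean log2 signal, PDAC minus normal ductal, for each claudin, and bars its 95% interval from limma's moderated test (2 and 3 arrays). The intervals of Cldn1, Cldn3, Cldn4, Cldn6, Cldn7 and Cldn23 lie below 0, and those of Cldn2, Cldn8, Cldn10 and Cldn12 include it.

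With an adjusted p under 0.05 as the threshold, the calls of some claudins depended on the alternative analysis, of which those that left out a gene give it no value. Without normal ductal replicate 1 or 2 the normal ductal group held 1 array. P-values of those fits leave out the spread between normal ductal cultures. With all arrays kept, Cldn1 passed with a common array median (limma adjusted p = 0.0266) and with quantile normalization (0.0433). It also passed without genes with equal values within a group (0.0186), and had 0.440 with the replicate block. Over its alternatives Cldn7 passed in 4 of 14 (0.0227 to 0.440), Cldn4 in 3 of 14 (0.0275 to 0.440) and Cldn3 in 1 of 14 (0.0459 to 0.440). Cldn6 (0.131 to 0.583) and Cldn23 (0.135 to 0.440) passed in 0. The log2 difference stayed between -5.81 and -4.54 for Cldn1, between -5.18 and -4.40 for Cldn4, between -4.46 and -3.94 for Cldn7, between -4.39 and -3.60 for Cldn3 and between -5.09 and -3.37 for Cldn6. Without normal ductal replicate 2, the array with the higher fibroblast and acinar markers, the differences were -5.81 for Cldn1, -4.22 for Cldn3, -4.84 for Cldn4, -4.52 for Cldn6 and -4.34 for Cldn7.

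The sequences just before the start sites of the 5 claudins with differences below -2 are shown because these genes were low together in PDAC. Each is the 250 bases before the RefSeq start used, in GRCm38.p6, read 5′ to 3′ on the gene's strand: chr16:26371840-26372089 (minus strand), chr5:134985964-134986213 (plus), chr5:134946935-134947184 (minus), chr17:23679115-23679364 (plus) and chr11:69964529-69964778 (plus). The start used for Cldn6 lies 17 bases downstream of the RefSeq gene start. The end of its window, with the GC box nearest the start used, therefore lies within the gene. Capitals mark the motifs searched on both strands: CAGGTG, the E-box that Snail and Zeb repressors bind; AACCGGTT, the core bound by grainyhead-like factors; TATAAA, the TATA box; and GGGCGG, the GC box. None of these matches overlap.
Cldn1: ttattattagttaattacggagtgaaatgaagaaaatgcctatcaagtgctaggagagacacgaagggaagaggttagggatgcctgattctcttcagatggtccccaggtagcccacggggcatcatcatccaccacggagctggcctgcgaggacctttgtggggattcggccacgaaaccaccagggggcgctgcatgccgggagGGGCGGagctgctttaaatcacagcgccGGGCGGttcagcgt
Cldn3: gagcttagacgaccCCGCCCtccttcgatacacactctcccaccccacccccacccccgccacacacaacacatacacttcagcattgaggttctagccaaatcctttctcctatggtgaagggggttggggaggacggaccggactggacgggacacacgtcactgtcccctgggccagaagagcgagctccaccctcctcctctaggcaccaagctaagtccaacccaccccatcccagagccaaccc
Cldn4: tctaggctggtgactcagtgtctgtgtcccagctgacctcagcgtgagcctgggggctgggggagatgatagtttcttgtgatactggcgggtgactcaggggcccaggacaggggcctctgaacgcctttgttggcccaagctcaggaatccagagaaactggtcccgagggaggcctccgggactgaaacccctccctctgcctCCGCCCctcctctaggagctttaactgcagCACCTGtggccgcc
Cldn6: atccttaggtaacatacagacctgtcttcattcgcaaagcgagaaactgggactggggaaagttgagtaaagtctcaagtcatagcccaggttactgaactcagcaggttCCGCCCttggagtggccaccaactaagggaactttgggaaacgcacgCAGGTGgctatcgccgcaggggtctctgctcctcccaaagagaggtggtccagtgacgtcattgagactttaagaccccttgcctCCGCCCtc
Cldn7: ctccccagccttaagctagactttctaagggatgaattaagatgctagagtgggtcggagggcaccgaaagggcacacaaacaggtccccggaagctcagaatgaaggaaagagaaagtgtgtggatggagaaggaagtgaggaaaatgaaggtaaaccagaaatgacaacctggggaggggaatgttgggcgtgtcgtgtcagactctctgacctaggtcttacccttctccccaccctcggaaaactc

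The E-box occurred in the windows of Cldn4, where its first base lies 14 bases before the start, and of Cldn6, 93 bases before it. That is 2 of the 8 claudins with a RefSeq window, counting the first start of each, against 17.2% of all 32851 windows of this length. A second RefSeq start of Cldn7, 642 bases downstream of the first, has 2 E-boxes in its own window. The GC box was in the first window of 4 of the 8 (Cldn1, Cldn3, Cldn4 and Cldn6) against 32.7% of all windows. RefSeq gives further starts for Cldn7, Cldn10 and Cldn12, and each of these genes has a GC box in a later window. Over all 12 windows of the 8 claudins, 8 held the GC box and 3 the E-box, so that 7 of the 8 genes had a GC box and 3 an E-box in some window; the shares of all windows also include later starts. The TATA box was in 1, Cldn2, 35 bases before the start, against 12.4%, and AACCGGTT was in 0 of the 8 and in 0.116% of all windows. GC content was 55.6% for Cldn1, 60.8% for Cldn3, 62.0% for Cldn4, 53.6% for Cldn6 and 51.2% for Cldn7, with a median of 52.4% over all windows. Such matches describe letters in a window and not the binding of a factor.

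The claudins that were lower in PDAC were not equally low in each tumour culture. Relative to the normal ductal mean, the log2 difference of Cldn6 was -5.52, -4.65 and -2.09 in PDAC replicates 1, 2 and 3. Cldn3 differed by -4.50, -4.27 and -2.96 in replicates 1, 2 and 3, Cldn7 by -4.66, -4.27 and -3.61, and Cldn4 by -4.87, -5.49 and -3.93. Cldn1 had the opposite order, with -5.04, -5.11 and -5.37. Its PDAC signals of 4.54, 4.47 and 4.20 were as low as those of flat claudins, so its order carries little weight. Of the 8 claudins with 5 distinct values, 6 had their highest PDAC signal in replicate 3, and Cldn1 and Cldn12 had their lowest there. The median difference over all 10 claudins was -2.91, -2.93 and -1.44 in PDAC replicates 1, 2 and 3, against 0.00, 0.01 and 0.00 over all genes.

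The duct and epithelial markers moved with the claudins in PDAC replicates 1 and 2, where their median differences were -3.28 and -2.39, and less so in replicate 3, at -0.82. In replicate 3 the markers ranged from -2.38 for Epcam and -2.02 for the keratin Krt8 to 0.33 for Krt19 and 1.46 for the transcription factor Foxa2, with Sox9 at -0.17 and Cdh1 at -1.37. The claudins ranged in that culture from -5.37 for Cldn1, -3.93 for Cldn4 and -3.61 for Cldn7 through -2.09 for Cldn6 and -0.57 for Cldn23 to 0.13 for Cldn2, so that the ranges of the claudins and the markers overlapped. Epcam, the partner of Cldn7, differed by -4.73, -5.14 and -2.38 in the PDAC replicates. Whether a change in the share of epithelial cells has a part in the claudin differences was not tested.

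**Figure D3:**
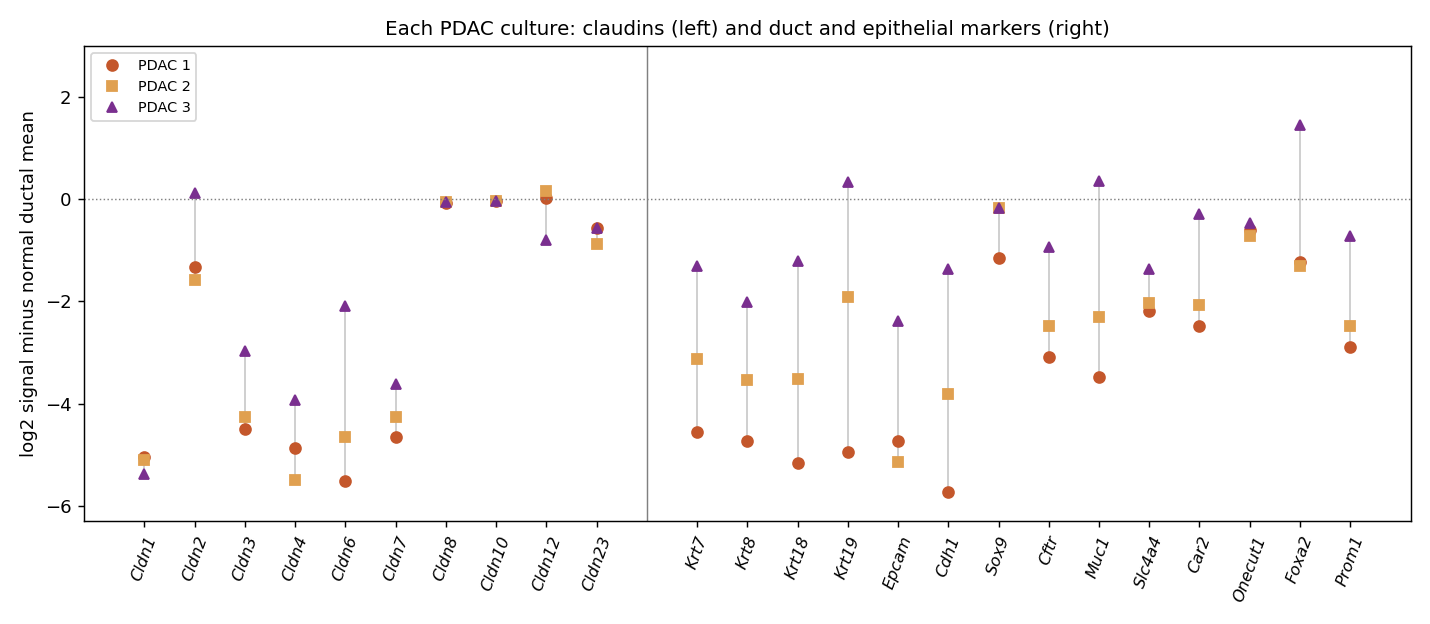
The vertical axis gives each PDAC array's log2 signal minus the mean of the normal ductal arrays, for the 10 claudins (left) and 14 duct and epithelial markers (right), with a symbol for each PDAC culture and a grey line for their span. In PDAC replicate 3 (triangles) the claudins lie between -5.37 (Cldn1) and 0.13 (Cldn2) and the markers between -2.38 (Epcam) and 1.46 (Foxa2).

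Within the family, likeness was measured as the root mean square difference between genes of their log2 signals, each centred on its own mean over the 5 arrays. Among the 5 claudins with large differences the closest pair was Cldn3 and Cldn7, at 0.27, followed by Cldn4 and Cldn7 at 0.45 and by Cldn3 and Cldn4 at 0.52. Cldn1 was 0.71 from Cldn4 and 0.72 from Cldn7. The search covered 9547 other genes with a mean above the median and an ordinary symbol, which leaves out predicted and clone-named genes, for example. Among them the nearest to Cldn4 were Esrp1, an epithelial splicing factor, at 0.25, the membrane protease gene St14 at 0.27 and Ocln, which encodes the junction protein occludin, at 0.37. Ocln read 9.95 and 9.53 in the normal ductal arrays and 4.94, 4.48 and 6.75 in the PDAC arrays. The nearest to Cldn7 were Tmc4, a transmembrane channel-like gene, at 0.13, Cdcp1, a membrane glycoprotein phosphorylated by Src kinases, at 0.18 and the potassium channel gene Kcnk1 at 0.19. Tmc4 read 11.13 and 10.88 in the normal ductal arrays and 6.36, 7.01 and 7.29 in the PDAC arrays. These likenesses are descriptions over 5 arrays.

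In GRCm38, Cldn4 (chromosome 5, 134945123 to 134946934) and Cldn3 (134986214 to 134987476) lie 39.3 kb apart, and both were low in PDAC. The groups overlapped for the genes on their outer sides: Mettl27, a methyltransferase-like gene 2.49 kb from Cldn4, had -0.66 (SE 0.41, limma adjusted p = 0.550), and Abhd11, a hydrolase gene 21.7 kb from Cldn3, had 0.05 (SE 0.07, adjusted p = 0.765). Cldn6 (chromosome 17, 23679348 to 23682446) lies between Tnfrsf12a, the receptor of the cytokine TWEAK, and Cldn9. Tnfrsf12a, 1.90 kb away, read 11.53 and 11.50 in the normal ductal arrays and 11.50, 11.72 and 11.09 in the PDAC arrays. Cldn9, 0.138 kb away, stood at 6.01 and 6.50 against 5.44, 5.47 and 5.60. Elp5, a subunit of the Elongator complex 0.338 kb from Cldn7 (chromosome 11, 69964779 to 69967886), had a difference of 0.19 (SE 0.14, adjusted p = 0.564). The neighbours of Cldn1 (chromosome 16, 26356645 to 26371839) were Trp63, a transcription factor of basal epithelia, with 0.05 (SE 0.09), and Cldn16, with 0.11 (SE 0.10).

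Neighbours were the nearest measured genes with an ordinary symbol that do not overlap the member. Over the 18 that are no member, the median difference was -0.04, with 3 lower and 1 higher at an unadjusted limma p under 0.05, where 6.86% of all genes were lower and 6.5% higher. Those lower were Cldn9, the chromatin gene Morc4 next to Cldn2 (-1.24, SE 0.38) and Abcc4, an exporter of organic anions and nucleotides next to Cldn10 (-1.91, SE 0.39). The one that was higher was the cyclin-dependent kinase gene Cdk14 next to Cldn12 (2.03, SE 0.24).

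**Figure D4:**
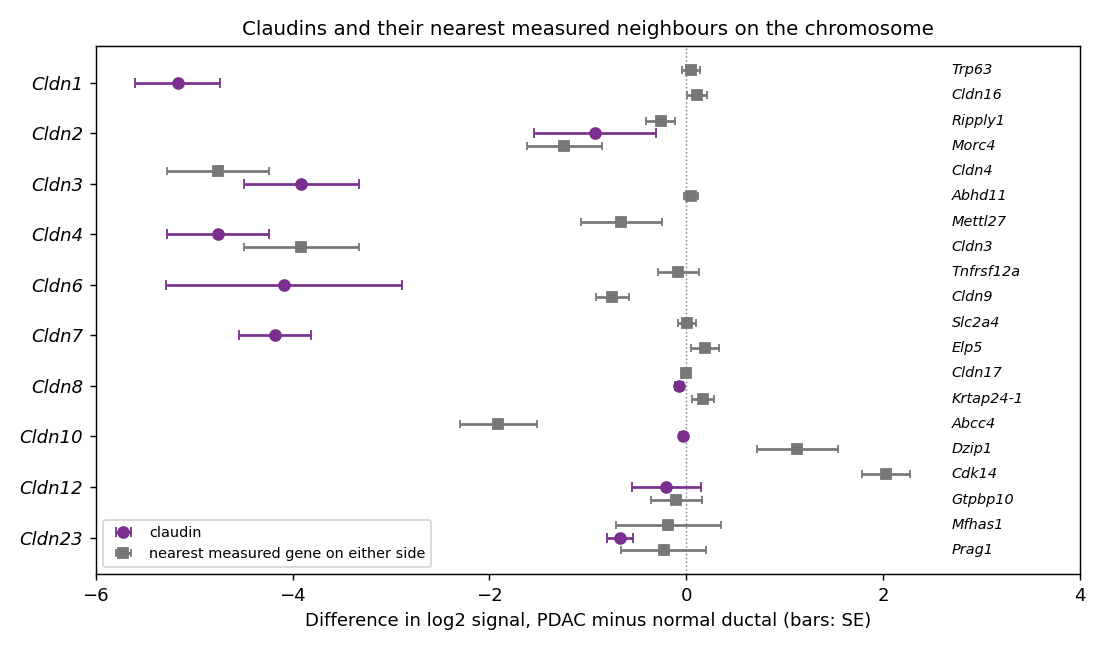
Circles give the log2 difference, PDAC minus normal ductal, of each claudin and squares that of the nearest measured gene with an ordinary symbol on either side of it on the chromosome, with bars for the SE and the neighbours' names at the right. Cldn3 and Cldn4 are each other's neighbours and both lie below -3, while Abhd11 lies at 0.05 and Mettl27 at -0.66.

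Of 20 other claudins measured, 1 was lower at an unadjusted limma p under 0.05, Cldn9, a claudin of the inner ear and other epithelia (-0.75, SE 0.17, adjusted p = 0.243), and 0 were higher, against 6.86% and 6.5% of all genes. Their median difference was 0.04, and 18 of the 20 had a mean below the gene median. Among those higher in PDAC the smallest p belonged to Cldnd1, a claudin domain gene (0.22, SE 0.12, adjusted p = 0.550) and Cldn20 (0.52, SE 0.31, adjusted p = 0.550). Some differences turned on which normal ductal array was kept. Without normal ductal replicate 1, Cldn9 differed by -1.0, Cldn13 by 0.07, Cldn16 by 0.27 and Cldn34b3 by 0.20. Cldn13, Cldn16 and Cldn34b3 held 3 or 4 distinct values over the 5 arrays. Without normal ductal replicate 2, Cldn9 differed by -0.51, Cldn16 by -0.04 and Cldn34b3 by -0.09.

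Many genes whose proteins assemble with claudins were lower in PDAC. Of 31 measured tight junction partners, 16 were lower and 2 higher at an unadjusted limma p under 0.05, and 19 were lower in every PDAC culture, against 6.86%, 6.5% and 12.8% of all genes; the 2 higher are near the share of all genes. Their median difference was -1.02. Over all genes 1 of them passed the adjustment: Ildr1, a protein of tricellular junctions, fell from 9.45 and 9.64 in the normal ductal arrays to 5.63, 5.52 and 5.67 in the PDAC arrays (-3.94, SE 0.09, adjusted p = 0.0229). Ildr1 did not pass with the replicate block or without PDAC replicate 1, 2 or 3, that is in 4 of 14 alternatives, whose adjusted p ran from 0.0043 to 0.44 over all 14, while its log2 difference stayed between -4.03 and -3.84. The junction protein Marveld3 (-2.51, SE 0.24), the scaffold Tjp1, also known as ZO-1 (-1.18, SE 0.17), and the adhesion molecule Igsf5 (-2.42, SE 0.41) had the next smallest p among those lower, with adjusted p of 0.140, 0.166 and 0.193. Bves, a membrane protein that binds cyclic AMP (0.90, SE 0.18, adjusted p = 0.218), and Jam3, a junctional adhesion molecule found also outside epithelia (1.41, SE 0.41, adjusted p = 0.311), were the 2 that were higher. The median difference of the 31 partners was -0.74 without normal ductal replicate 1 and -1.3 without replicate 2.

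Of 25 measured genes known to act on claudins or on epithelial identity, 9 were lower and 3 higher at an unadjusted limma p under 0.05, against 6.86% and 6.5% of all genes, and 0 passed the adjustment. The median difference was -0.36. Among those lower, the claudin-activating transcription factor Grhl2 read 7.96 and 7.68 in the normal ductal arrays and 5.09, 5.21 and 5.58 in the PDAC arrays (adjusted p = 0.119), and the protease St14 had -4.86 (SE 0.53, adjusted p = 0.148). Its inhibitor Spint1 had -4.11 (SE 0.59, adjusted p = 0.166) and the epithelial transcription factor Ehf -3.46 (SE 0.60, adjusted p = 0.196). The 3 that were higher were transcription factors that repress epithelial genes: Snai2, with 6.56 and 7.44 in the normal ductal arrays and 10.09, 9.75 and 9.96 in the PDAC arrays (adjusted p = 0.148), Twist2 (2.51, SE 0.57, adjusted p = 0.243) and Zeb1 (0.53, SE 0.14, adjusted p = 0.290). The count of lower genes was 5 of the 25 without PDAC replicate 1, where 4.99% of all genes were lower. Some of these genes passed the limma adjustment in alternatives that kept all arrays. With a common array median these were Grhl2 (adjusted p = 0.0238), St14 (0.0382) and Snai2 (0.0389), and with quantile normalization Grhl2 (0.0386). Leaving out genes with equal values within a group, Grhl2 (0.0250), St14 (0.0277), Spint1 (0.0414) and Snai2 (0.0302) passed. Without the lowest 50% of genes, St14 and Snai2 did (0.0471 each). The difference of Snai2 was 2.50 without normal ductal replicate 1 and 3.37 without normal ductal replicate 2. That of Twist2 was 1.66 without normal ductal replicate 1 and 3.37 without normal ductal replicate 2. Cdx2, an intestinal transcription factor with only 2 distinct values over the 5 arrays, differed by 0.23 without normal ductal replicate 1.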

How the data were processed

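The authors deposited a log2 signal for each of 35556 probe sets on 5 arrays, ranging from 0.727 to 13.9, with the log base read from the values. Transcriptome Analysis Console 1.0.0.234 and the build mm10 are named in the submitters' processing notes; how background, normalization and probes were handled is not given in the sources used here. RNA was amplified and labelled with biotin, per the labels' protocols. The 21789 probe sets with 1 symbol in the platform annotation gave 19938 genes, each with its highest probe set by mean; the 1621 with several symbols and the 12146 with none were left out of the tests. Groups came from the titles, and for normal ductal replicate 2, whose title does not say ductal, from its source and cell type labels too.

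Each gene was fitted in R 4.3.3 with limma 3.58.1 (lmFit, then eBayes with trend, two-sided, PDAC minus normal ductal), and p-values were adjusted by Benjamini-Hochberg over all genes, with 0.05 as the threshold. Intervals are 95% intervals of the moderated test. On data simulated for this comparison over 19938 genes, an adjusted p under 0.05 was reached by 36.1% of genes lowered by a log2 of 1 and by 86.8% of those lowered by 4, and 6.03% of unchanged genes had an unadjusted p under 0.05. The lowered genes were drawn at random from all genes, each with its own spread between arrays. Those shares are therefore averages over all genes and do not give the power for the claudins. Values equal to 6 decimals within a group occurred in 7444 genes. Summaries used Python 3.11.15, and promoter windows and gene positions are RefSeq's in GRCm38.p6, with windows for 8 of the 10 claudins.

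The members and gene lists were chosen with earlier results of these data known. The text names every claudin member; in each other list the 4 genes with the smallest p in each direction where p is under 0.05, or else the 2 with the smallest p; the 3 genes most like Cldn4 and Cldn7; the nearest measured neighbours of members; and Epcam, Cdh1, Krt19 and Sox9. Neighbours, and the genes compared with Cldn4 and Cldn7, came from genes with ordinary symbols. This left out symbols such as those of predicted, clone-named, microRNA and olfactory receptor genes. The closing section gives the 14 alternatives.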

Additional observations from a re-analysis of the deposited data

Results flagged for a closer look

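A probe set annotated with both Dzip1 and Cldn10, left out of the tests because it names 2 genes, was higher in every PDAC array than in both normal ductal arrays. It read 5.51 and 5.90 in the normal ductal arrays and 6.39, 6.17 and 6.23 in the PDAC arrays, a difference of 0.56, whereas both probe sets of Cldn10 alone stayed between 4.08 and 4.23. Dzip1 itself, the gene next to Cldn10, read 5.79 and 7.01 in the normal ductal arrays and 7.66, 7.50 and 7.43 in the PDAC arrays.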

How the results depend on the processing

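Alternatives changed the scaling (quantile normalization or a common array median), the genes kept (without the lowest 25% or 50%), the variance model (no trend), the probe sets (their mean), the array weights, the pairing (replicate block) and the cultures (each left out) and, added after seeing the data, leaving out genes with equal values within a group. With a PDAC culture left out, 5 to 7 of the 10 claudins were lower at an unadjusted p under 0.05, against 4.99% to 6.7% of all genes. Leaving out a normal ductal culture leaves 1 array in that group. The median difference of the 10 claudins was then -2.17 without replicate 1 and -2.67 without replicate 2. With the replicate block 7 claudins were lower (5.57% of all genes). Changing the scaling, the variance model, the probe sets or the array weights left 6 (5.67% to 7.11% of all genes). Of the 8 claudins kept without the lowest 25% of genes, or without equal values, 6 were lower (8.55% and 10.4% of all genes kept). Of the 5 kept without the lowest 50%, 4 were lower (9.07% of all genes kept). With a PDAC culture left out, 1 of the 20 other claudins was lower and 0 higher at an unadjusted p under 0.05. Lower in these fits were 12 to 15 of the 31 tight junction partners and 5 to 8 of the 25 regulators, against 4.99% to 6.7% of all genes. Without normal ductal replicates 1 and 2 in turn, the median difference of the regulators was -0.30 and -0.39. That of the other claudins was 0.05 without normal ductal replicate 1. With any culture left out, 0 to 1287 genes had an adjusted p under 0.05 in either direction (11 as deposited with all arrays). The highest count came from a fit with 1 normal ductal array, whose p-values leave out the spread between normal ductal cultures. Without the lowest 50% of genes, 0 of 2 other claudins, 15 of 27 partners and 5 of 17 regulators were lower, and 42 genes passed the adjustment. The count of genes was 42 with quantile normalization, 80 with a common array median, 3 with array weights and 167 without equal values; the cause was not tested. The labels number replicates 1 and 2 in both groups, with no statement that a number marks a shared origin. Deviations from the group means correlated at -0.18 for the pair numbered 1 and -0.04 for that numbered 2. The deviations of the 2 normal ductal arrays mirror each other by construction, so these values cannot decide whether a number marks a shared origin. With the replicate block limma called 0 genes after adjustment (1110 lower and 1104 higher at an unadjusted p under 0.05). Before adjustment 7 claudins, now with Cldn2, were lower in that fit. Directions turned only for 3 claudins whose groups overlapped. Those of Cldn8 (0.03) and Cldn10 (0.06) turned with a common array median, which moved the median of all genes to 0.10. That of Cldn12 turned without PDAC replicate 3 (0.09, and -0.38 to 0.09 with a culture left out). It also turned with the replicate block (0.09), which takes up PDAC replicate 3 and so gives the same difference by construction. The log2 difference of Cldn10 was -0.06 without normal ductal replicate 1.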

Other observations

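Cldn18, the claudin of gastric and lung epithelium, is outside the named claudins and was chosen after its values were seen. It stood at 5.94 and 7.97 in normal ductal replicates 1 and 2 and at 5.25, 6.16 and 10.70 in PDAC replicates 1, 2 and 3. PDAC replicate 3 was the highest of the 5 arrays, and the difference of the groups was 0.42 (SE 2.02, limma adjusted p = 0.958). Cldn15, a pore-forming claudin of the intestine chosen in the same way, stood at 7.60 in PDAC replicate 1 and between 5.73 and 6.00 in the other 4 arrays. The list mean of mesothelial markers was 8.76 in PDAC replicate 3, against 5.72 and 6.38 in the other tumour cultures and 6.88 and 7.34 in the normal ductal cultures.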
